A study of Homo sapiens with 7 samples.

Results

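The clustered histone genes were measured in Daoy cells, an established human medulloblastoma cell line labelled wild type. Members were all rows whose transcript accession belongs to a gene with a symbol of the form H1-1 to H1-6, H2AC, H2BC, H3C or H4C followed by a number. That rule found 67 rows of 66 genes among the 24000 rows of the deposited table, of which 19125 rows could be named. By class they were 6 rows for H1, 16 for H2A, 19 for H2B, 12 for H3 and 14 for H4, and H2BC5 was the one gene with more than 1 row. The RefSeq table names 69 such genes, and H2AC19, H3C13 and H4C11 had no row here. Total RNA came from cells with no treatment in their labels, grown with 10% fetal bovine serum, penicillin and streptomycin, as 2 biological replicates. Replicate 1 was read on 3 arrays (numbered 1, 2 and 4) and replicate 2 on 4 arrays, all labelled with Cy3.

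Histones are the proteins around which DNA is wound. H3 and H4 form the centre of the nucleosome, H2A and H2B add a dimer on each side, and the linker histone H1 sits where DNA enters and leaves. The genes of these 5 classes lie in clusters and are transcribed mainly in S phase, when new DNA has to be packed. Most of their mRNAs have no poly(A) tail and end in a stem-loop that the protein SLBP binds, although a few genes, H2BC12 and H2BC21 among them, are known to give polyadenylated transcripts as well. Their transcription depends on NPAT, which cyclin E and CDK2 activate at the entry into S phase.

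Intensities are on the log2 scale as deposited, and each array had a median of 8.15 over all rows. A row was called above background where it exceeded the 95th percentile of the 364 olfactory receptor rows, which came to 7.79 in replicate 1, 7.24 in replicate 2 and 7.54 for the mean of both. Over all rows, pairs of arrays correlated at 0.985 to 0.994 within a replicate and at 0.948 to 0.962 between replicates. The corresponding ranges over the 67 histone rows were 0.951 to 0.990 and 0.918 to 0.949. Of the marker rows for the cell type, 5 of 6 neural rows were above background in both replicates. These were TUBB3, NEFL, SOX2, MSI1 and VIM, while NES was below background in both replicates. SOX2, at 7.82 in replicate 1, was close to the cutoff there. The median of the neural rows was between 9.90 and 10.24 on each array. None of 7 leukocyte and 4 epithelial rows was above background in either replicate, and 1 of 3 endothelial rows was so in replicate 2 alone. The series' design text puts each replicate on a 4-plex array, so culture and array slide cannot be told apart. Arrays of a replicate are repeats of 1 RNA sample, so p-values here measure the spread between arrays, and levels have n = 2.

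The 5 classes differed less in level than the genes within each of them. The median level was 8.56 for H1, 8.86 for H2A, 9.23 for H2B, 7.80 for H3 and 8.90 for H4. These medians stood at percentiles 51.4, 55.2, 60.1, 42.2 and 55.7 of all named rows. Above background were 5 of 6 H1 rows, 11 of 16 H2A rows, 14 of 19 H2B rows, 6 of 12 H3 rows and 8 of 14 H4 rows. Within H2B the levels ran from 5.59 to 12.85, within H2A from 5.83 to 13.69, and within H4 from 5.70 to 11.49. Signal also depends on how well the probes of a row hybridise, so the order of single rows is not an order of transcript amounts.

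Each class median was higher in replicate 2. The H1 median was 7.96 in replicate 1 and 9.19 in replicate 2, a mean of 8.58 ± 0.87 (SD, n = 2). That of H2A was 8.08 and 9.68, a mean of 8.88 ± 1.13 (SD, n = 2). For H2B the values were 8.78 and 9.58, a mean of 9.18 ± 0.57 (SD, n = 2). H4 stood at 8.40 and 9.39, a mean of 8.90 ± 0.71 (SD, n = 2), while H3 stood at 7.66 and 7.95, a mean of 7.80 ± 0.21 (SD, n = 2). All classes were read on the same arrays, so the shift between the replicates is shared and the SDs are not independent. Within each replicate H2B was above H4, H2A was above H1 and H1 was above H3. H2A stood below both H2B and H4 in replicate 1 and above both in replicate 2. With 2 replicates this order was not tested.

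**Figure D1:**
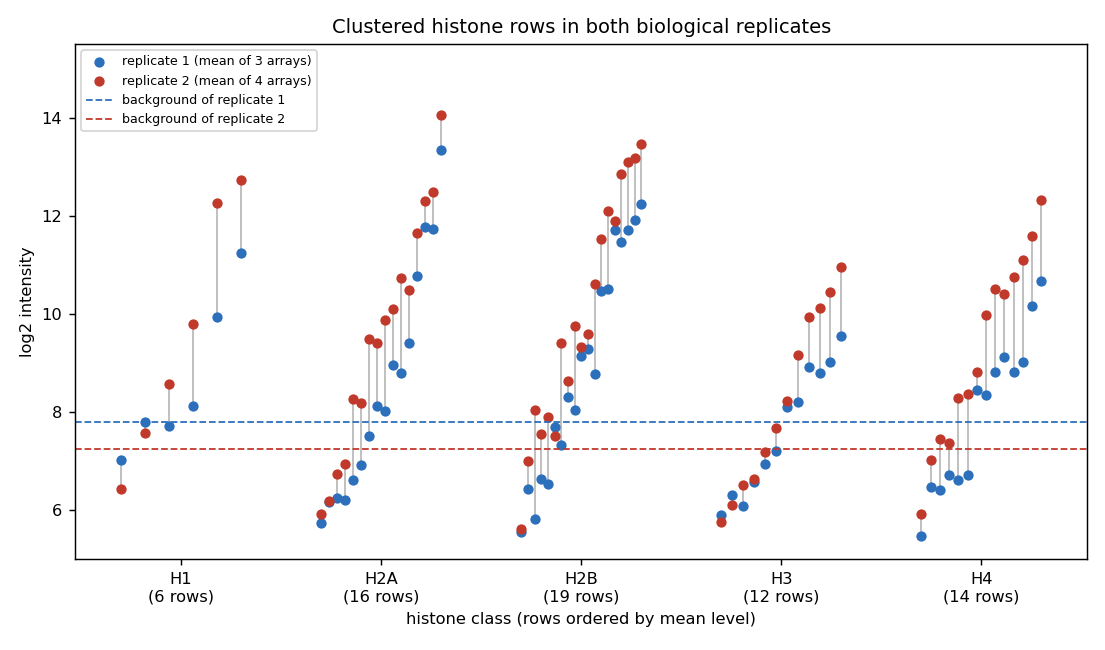
Log2 intensity of each of the 67 clustered histone rows in replicate 1 (mean of 3 arrays) and replicate 2 (mean of 4 arrays), ordered by mean level within each class, with grey lines joining both values of a row and dashed lines at the background of each replicate. In every class most rows lie higher in replicate 2, and the H3 class has the lowest median level, 7.80.

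Most clustered histone genes had more signal in replicate 2 than in replicate 1. Of the 67 rows, 49 were called higher in replicate 2 (73.1%), 1 was called lower and 17 passed in neither direction, by limma at a Benjamini-Hochberg threshold of 0.05 over all rows. Over all 24000 rows, 24.6% were called higher and 24.2% lower, which is 5895 and 5806 rows. With the arrays centred on DNA replication genes these became 2964 and 8480 rows, and the histone rows 42 higher and 2 lower. Histone rows that lost their call under this centring were H2AC6, H2AC16, H2BC10, H2BC13, H3C10, H4C1 and H4C7. The median log2 difference was 1.05 over the histone rows, a 2.07-fold difference, beside -0.01 over all rows. Single rows ranged from -0.60 to 2.32, and 62 of 67 were above 0. H1-6, the row called lower, lost its call without any one of 6 of the 7 arrays. In 36 rows the call came with a log2 difference of at least 1, against 5.43% of all rows. In these bulk RNA samples, a larger share of cells in S phase and more histone mRNA per cell cannot be told apart. Neither can be told from a difference in RNA handling or array slide, as each replicate was 1 RNA sample.

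The arrays show the same pattern without the model. All 4 arrays of replicate 2 were above all 3 arrays of replicate 1 in 49 of the 67 rows, a pattern seen in 25.7% of all rows. The opposite pattern occurred in 0 of the 67 rows and in 25.9% of all rows. Among members with a level between 8 and 10, 19 of 24 were called higher, with a median log2 difference of 1.30. In the same range of levels over the whole table, 1784 of 6064 rows were called higher and the median difference was -0.01. Of the 49 histone rows called higher, 44 were above background in at least 1 replicate and 31 in both. The rest of the 44 were above it in replicate 2 alone, the replicate with their higher values and the lower cutoff. H2AC8, H2AC16, H2BC13, H4C1 and H4C7 were below background in both replicates.

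**Figure D2:**
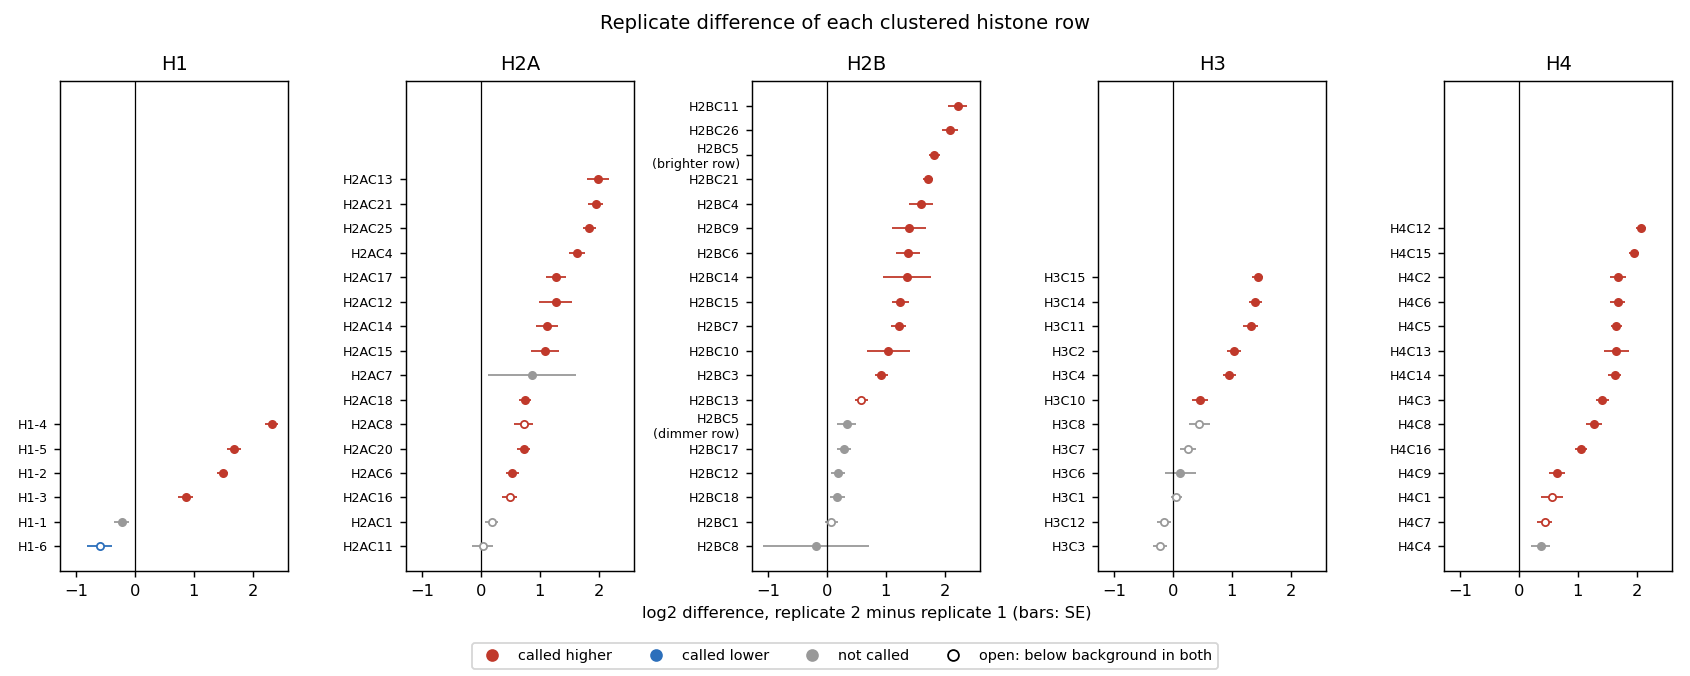
Log2 difference between the replicates (replicate 2 minus replicate 1, bars give the SE of the fit) for every row, 1 panel per class. Open circles mark rows below background in both replicates. H1-4 stands farthest to the right at 2.32 and H1-6 farthest to the left at -0.60.

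The classes were not alike in how many of their rows were called, although the difference between classes was not tested. H4 had 13 of 14 rows called higher, with a median log2 difference of 1.52 (2.87-fold). H2A had 13 of 16 and a median of 0.98 (1.97-fold). H2B had 13 of 19 and a median of 1.22 (2.32-fold), and H1 had 4 of 6 and a median of 1.18 (2.26-fold). H3 had 6 of 12, with a median of 0.45 (1.37-fold). The dim rows of a class bear on these values. With rows at or below background in both replicates removed, the H3 median was 1.03 and 6 of the 7 H3 rows left were called higher, beside 11 of 12 for H4, 11 of 12 for H2A, 12 of 17 for H2B and 4 of 5 for H1. Of the 53 histone rows left, 14 were above background in replicate 2 alone and 0 in replicate 1 alone. The cutoff was also lower in replicate 2 (7.24 against 7.79), so the filter itself favours rows that are higher there. Centred on DNA replication genes, with no rows removed, the H3 median was 0.22. Where arrays of the replicates were fully apart, the order of the classes was similar, with 14 of 14 rows for H4, 13 of 16 for H2A, 12 of 19 for H2B, 4 of 6 for H1 and 6 of 12 for H3.

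Linker histones H1 held both the largest difference of all members and the one row called lower. H1-4, a main somatic linker histone, had log2 intensities of 10.06, 10.00 and 9.77 on the arrays of replicate 1 and 12.31, 12.39, 12.23 and 12.14 on those of replicate 2. The groups were more than 2 log2 units apart, and the difference of 2.32 ± 0.11 (SE), a 5.01-fold one, was the largest of the 67 rows (adjusted p = 2.73e-06). H1-2, the brightest row of the class, went from 11.17, 11.41 and 11.13 to 12.71, 12.79, 12.69 and 12.72. That made a log2 difference of 1.49 ± 0.10 (adjusted p = 8.27e-06), with no overlap between the replicates. H1-5, another somatic linker histone, had 8.10, 8.20 and 8.07 in replicate 1 and 9.55, 9.78, 9.90 and 9.98 in replicate 2, a difference of 1.68 ± 0.12 (adjusted p = 1.1e-05). H1-3, which the naming rule did not select, was above background in replicate 2 alone and at least 1.73-fold higher there (adjusted p = 0.000503).

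The other H1 rows were not called higher in replicate 2. H1-1 had 7.92, 7.71 and 7.76 against 7.58, 7.66, 7.29 and 7.77 (arrays of replicate 1 against those of replicate 2, as in all such pairs of values), close to background in both replicates. Its arrays overlapped, and its difference of -0.23 ± 0.13 did not pass (adjusted p = 0.169). H1-6, the testis-specific linker histone, was below background in both replicates and was the one row called lower. Its arrays read 7.32, 6.39 and 7.39 in replicate 1 and 6.40, 6.45, 6.42 and 6.45 in replicate 2, so that array 2 of replicate 1 lay with replicate 2 and the groups overlapped. The difference of -0.60 ± 0.22 (adjusted p = 0.044) lost its call when any single array other than array 2 of replicate 1 was left out, with adjusted p from 0.0653 to 0.163.

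H2A genes code for partners of H2B in the outer dimer of the nucleosome. H2AC20 was the brightest H2A row, at percentile 98.9 of all named rows. Its intensities were 13.45, 13.41 and 13.14 in replicate 1 and 14.16, 14.16, 14.00 and 13.90 in replicate 2, fully apart but by a modest 0.72 ± 0.11 (adjusted p = 0.000775). H2AC18, next in level, had 11.66, 11.73 and 11.80 against 12.35, 12.47, 12.43 and 12.67, a log2 difference of 0.75 ± 0.10 (adjusted p = 0.000353). Both of these bright rows had differences below the class median of 0.98.

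The largest H2A differences were in rows of lower signal. H2AC13 read 7.61, 7.45 and 7.47 in replicate 1, below background, and 9.19, 9.20, 9.58 and 9.99 in replicate 2. It was at least 3.24-fold higher in replicate 2, with a fitted log2 difference of 1.98 ± 0.19 (adjusted p = 4.72e-05). H2AC21 was above background in both replicates, with 9.06, 8.67 and 8.65 against 10.84, 10.83, 10.72 and 10.58. Its arrays did not overlap, and it was 3.86-fold higher (log2 difference 1.95 ± 0.13, adjusted p = 7.87e-06). The other 9 H2A rows called higher had log2 differences from 0.49 to 1.84.

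H2A rows that did not pass were 3. H2AC1, which codes for a testis-specific H2A, was below background at 5.74, 5.61 and 5.86 against 6.14, 5.95, 5.82 and 5.76. H2AC11 was below background too, with 5.81, 6.61 and 6.08 against 6.04, 6.22, 6.37 and 6.16, a log2 difference of 0.03 ± 0.18 (adjusted p = 0.896). H2AC7 was bright but its arrays disagreed, with 10.56, 11.20 and 10.55 in replicate 1 and 12.94, 9.25, 11.78 and 12.59 in replicate 2. Array 2 of replicate 2 was the lowest of all 7, and the other 3 arrays of replicate 2 were above every array of replicate 1. The difference was 0.87 ± 0.75 (adjusted p = 0.366), and without that array it was 1.67 with an adjusted p of 0.00179.

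H2B genes held the highest median level over the mean of both replicates, though not in replicate 2 alone, and 6 of the 17 rows without a call. H2BC7, the brightest H2B row, had 12.17, 12.08 and 12.46 in replicate 1 and 13.34, 13.36, 13.52 and 13.61 in replicate 2, a log2 difference of 1.22 ± 0.12 (adjusted p = 5.81e-05). H2BC15 followed with 11.74, 12.08 and 11.95 against 12.90, 13.05, 13.33 and 13.40, a difference of 1.25 ± 0.14 (adjusted p = 0.000131). In both, every array of replicate 2 was above those of replicate 1. H2BC11 was below background in replicate 1, at 5.65, 5.72 and 6.11, and above it in replicate 2, at 7.93, 7.73, 8.27 and 8.25. Its fitted difference of 2.22 ± 0.16 (adjusted p = 1.48e-05) rests on a value below background, and as a bound it was at least 1.19-fold higher. H2BC26 had the same pattern at a higher signal, with 7.05, 7.52 and 7.41 against 9.46, 9.58, 9.22 and 9.41. It was at least 3.08-fold higher in replicate 2 (fitted log2 difference 2.09 ± 0.14, adjusted p = 7.96e-06). Besides these rows and H2BC5, 8 further H2B rows were called higher, with log2 differences from 0.58 to 1.71.

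Among the bright H2B rows, H2BC12 stood apart from H2BC7 and H2BC15. It had 11.85, 11.71 and 11.54 in replicate 1 and 12.06, 11.95, 11.90 and 11.65 in replicate 2, overlapping values with a log2 difference of 0.19 ± 0.12 (adjusted p = 0.24). H2BC17 had 9.22, 9.46 and 9.19 against 9.45, 9.79, 9.56 and 9.53, a difference of 0.29 ± 0.11 (adjusted p = 0.0599). H2BC18 had 8.94, 9.41 and 9.08 against 9.32, 9.13, 9.37 and 9.47, also overlapping, with a difference of 0.18 ± 0.13 (adjusted p = 0.297). All 3 of these rows were above background in both replicates. Without array 2 of replicate 1, H2BC17 passed (0.38, adjusted p = 0.0298).

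H2BC5 was measured by a pair of rows that gave different answers. The brighter row read 8.68, 8.82 and 8.84 in replicate 1 and 10.50, 10.60, 10.69 and 10.64 in replicate 2, a 3.55-fold difference (log2 1.83 ± 0.09, adjusted p = 3.13e-06). The dimmer row read 8.29, 8.17 and 8.46 against 8.74, 8.23, 8.67 and 8.90, overlapping, with a difference of 0.33 ± 0.16 (adjusted p = 0.112), and it passed without array 2 of replicate 2 (0.47, adjusted p = 0.0111). The rows carry different transcript accessions of the gene, and why they differ was not tested.

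The remaining H2B rows without a call were H2BC1 and H2BC8. H2BC1, which codes for the testis-specific H2B, was below background with 5.45, 5.73 and 5.48 against 5.68, 5.68, 5.71 and 5.43. H2BC8 scattered more between arrays of one replicate than between replicates, with 7.24, 8.63 and 7.22 in replicate 1 and 8.32, 6.26, 5.61 and 9.85 in replicate 2. Its log2 difference was -0.19 ± 0.90 (adjusted p = 0.879), and the sign turned to 0.44 with array number as a block. H2BC10 was called higher at 1.04 ± 0.37 (adjusted p = 0.0411), but the block gave 0.92 with an adjusted p of 0.0593, and without array 1 of replicate 1 it was 0.64 with an adjusted p of 0.157. It also lost its call without array 4 of replicate 1 or array 1, 3 or 4 of replicate 2, at differences from 0.92 to 1.14. In limma with an intensity trend and a robust prior H2BC10 did not pass either (1.04, adjusted p = 0.102). With the block, H2BC17 passed instead (0.30, adjusted p = 0.0257), as did the dimmer H2BC5 row (0.32, adjusted p = 0.0466).

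H3 genes had the lowest median level and the smallest median difference of the 5 classes. H3C14, the brightest H3 row, had 9.72, 9.53 and 9.43 in replicate 1 and 10.89, 10.84, 10.93 and 11.15 in replicate 2. The difference was 1.40 ± 0.11 (adjusted p = 2.22e-05), with the replicates fully apart. H3C15 had the largest difference of the class, from 8.98, 9.01 and 9.06 to 10.35, 10.52, 10.51 and 10.43, which is 1.44 ± 0.09 or 2.71-fold (adjusted p = 6.08e-06). H3C11, H3C2, H3C4 and H3C10, named after their values were seen, were called higher by log2 differences of 1.32, 1.03, 0.96 and 0.46. H3C10 lost its call without array 1 (0.47, adjusted p = 0.0504) or array 4 of replicate 1 (0.34, adjusted p = 0.0747).

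The 6 other H3 rows passed in neither direction. H3C6 was the one above background in both replicates, with 8.17, 7.78 and 8.38 against 8.08, 7.72, 8.15 and 8.98 and a difference of 0.13 ± 0.27 (adjusted p = 0.729). H3C1 had 6.45, 6.60 and 6.69 against 6.65, 6.59, 6.58 and 6.73, the smallest difference of the class at 0.06 ± 0.10. H3C12, the dimmest H3 row, had 5.81, 5.89 and 6.03 against 5.71, 5.94, 5.83 and 5.54, a difference of -0.15 ± 0.12 (adjusted p = 0.31). H3C3, H3C7 and H3C8, the other rows below background, had differences of -0.22 ± 0.12, 0.25 ± 0.14 and 0.44 ± 0.18 with adjusted p from 0.067 to 0.167. H3C8 passed with the block (0.37, adjusted p = 0.0175) and without array 2 of replicate 2 (0.56, adjusted p = 0.0245). It also passed in limma with an intensity trend and a robust prior (0.44, adjusted p = 0.0464). All 5 H3 rows that were below background in both replicates were thus without a call in the main fit.

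H4 genes, nearly all of which code for one identical protein, had the largest share of rows called higher. H4C5 had the brightest H4 row, with 10.64, 10.70 and 10.65 in replicate 1 and 12.47, 12.30, 12.33 and 12.17 in replicate 2, a difference of 1.65 ± 0.10 (adjusted p = 5.14e-06). H4C3 had 10.23, 10.21 and 10.07 against 11.60, 11.75, 11.64 and 11.34, a difference of 1.41 ± 0.11 (adjusted p = 2.21e-05). H4C12 had 9.02, 9.09 and 8.94 against 11.06, 11.07, 11.17 and 11.07, a 4.22-fold difference and the largest of the class (log2 2.08 ± 0.09, adjusted p = 2.47e-06). H4C15 was the tightest of the large differences, with 8.80, 8.81 and 8.82 in replicate 1 and 10.79, 10.78, 10.75 and 10.72 in replicate 2. It was 3.86-fold higher (log2 1.95 ± 0.08, adjusted p = 2.39e-06), which is far outside the spread between its arrays.

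Another 8 H4 rows were called higher, with log2 differences from 0.56 to 1.68. The lowest, H4C1, which is below background in both replicates, lost its call without array 1 or 2 of replicate 1, without array 3 or 4 of replicate 2 (0.43 to 0.54, adjusted p from 0.0541 to 0.0997) and with arrays centred on DNA replication genes (0.33, adjusted p = 0.137). At the low end, H4C7, which codes for a diverged H4 protein, was below background with 5.44, 5.51 and 5.50 against 5.73, 6.22, 5.84 and 5.89. Its difference of 0.44 ± 0.12 passed all the same (adjusted p = 0.0159), though not without array 1 of replicate 1 (0.41, adjusted p = 0.0533). H4C4 was the H4 row without a call, with 8.51, 8.35 and 8.47 against 8.55, 8.84, 8.62 and 9.24. All arrays of replicate 2 were above those of replicate 1, by 0.37 ± 0.16 (adjusted p = 0.0874), and with the block it passed (0.43, adjusted p = 0.0436). Many genes of one class code for the same or similar proteins. The probe sequences were not used here, so how much rows of a class share signal was not tested.

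**Figure D3:**
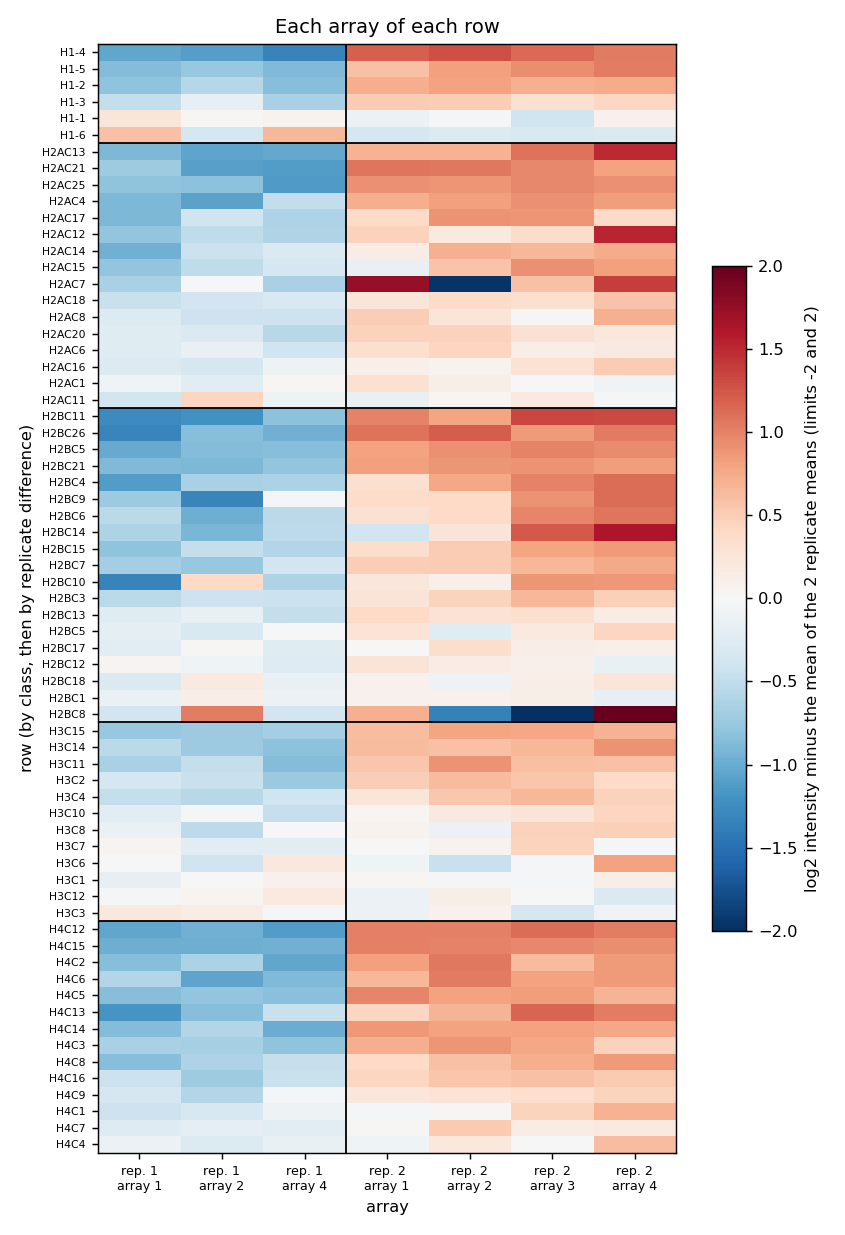
Log2 intensity of each row on each of the 7 arrays, minus the mean of both replicate means of that row, with rows by class (black lines) and by replicate difference within a class. Colours end at -2 and 2. Rows such as H4C12 and H4C15 are blue on all arrays of replicate 1 and red on all arrays of replicate 2, while the H2AC7 and H2BC8 rows change colour within replicate 2.

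Many H2A and H2B genes sit head to head and share the DNA between their starts. Of the members, 11 such H2A and H2B pairs had both genes measured, with starts 194 to 248 bases apart. Both genes were called higher in 6 pairs, 1 of both in 4 pairs and neither in 1 pair. Over the whole table, 24.6% of single rows were called higher. In 5 pairs both genes were above background in both replicates, so that both differences were measured on both sides. Among these, H2AC15 and H2BC15 were closest, with log2 differences of 1.09 and 1.25, followed by H2AC7 and H2BC7 at 0.87 and 1.22. H2AC20 and H2BC21 had 0.72 and 1.71, H2AC6 and H2BC4 had 0.53 and 1.60, and H2AC17 and H2BC17 had 1.28 and 0.29. The median size of the gap over these 5 pairs was 0.98, with the H2B gene larger in 4 and the H2A gene in 1. In the other 6 pairs, H2AC11 with H2BC11 among them, at least 1 gene was not above background in some replicate, so the size of the gap was not measured. These pairs were named after their values were seen.

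**Figure D4:**
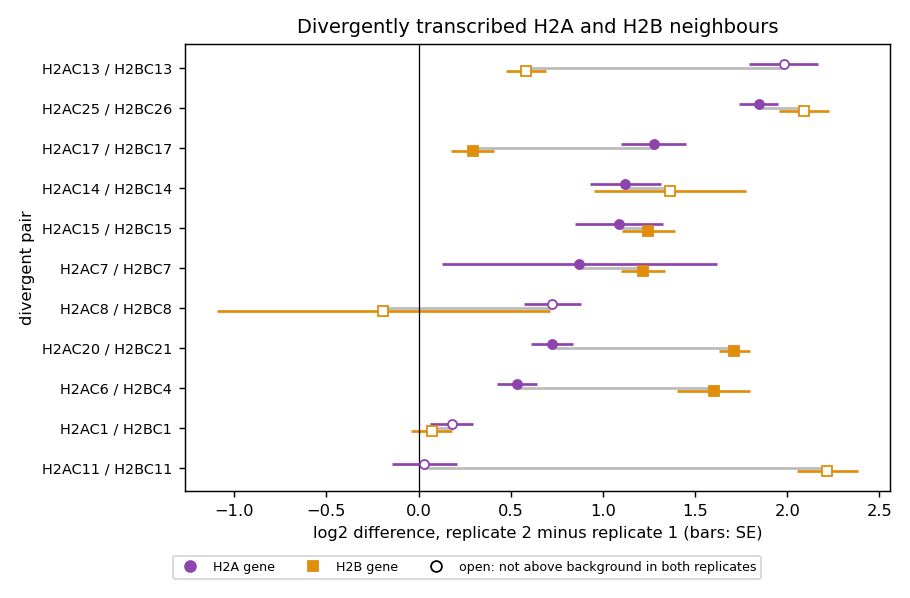
Log2 difference between the replicates (bars give the SE) of the H2A gene (circles) and the H2B gene (squares) in each of 11 divergent pairs, ordered by the H2A value, with open symbols for genes not above background in both replicates. H2AC6 and H2BC4, filled, lie at 0.53 and 1.60, whereas H2AC15 and H2BC15, also filled, lie at 1.09 and 1.25.

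Promoters of the classes carry different short motifs, shown here for 4 genes called higher and for H2BC12, a bright row without a call, all of them above background in both replicates. The H2BC7 window overlaps that of its H2A partner, H2AC7. The windows are the 250 bases before the start of each gene, from RefSeq on GRCh38.p14, written 5′ to 3′ on the strand of the gene. H1-4 (log2 difference 2.32) lies on the plus strand at chr6:26156079-26156328, H2BC7 (1.22) on the plus strand at chr6:26199266-26199515 and H2BC12 (0.19) on the minus strand at chr6:27146859-27147108. H3C15 (1.44) lies on the plus strand at chr1:149852358-149852607 and H4C15 (1.95) on the minus strand at chr1:149861160-149861409. Capitals mark the octamer ATTTGCAT, the TATA box TATAAA, the CCAAT box CCAAT, the H1 box AAACACA and the H4 element TCNGGTCCG, searched on both strands, so that a motif on the other strand appears as its reverse complement.
H1-4: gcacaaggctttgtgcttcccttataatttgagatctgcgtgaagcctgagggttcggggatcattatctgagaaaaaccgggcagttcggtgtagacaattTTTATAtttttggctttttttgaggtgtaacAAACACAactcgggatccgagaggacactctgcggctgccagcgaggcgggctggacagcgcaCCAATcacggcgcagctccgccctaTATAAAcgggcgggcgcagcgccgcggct
H2BC7: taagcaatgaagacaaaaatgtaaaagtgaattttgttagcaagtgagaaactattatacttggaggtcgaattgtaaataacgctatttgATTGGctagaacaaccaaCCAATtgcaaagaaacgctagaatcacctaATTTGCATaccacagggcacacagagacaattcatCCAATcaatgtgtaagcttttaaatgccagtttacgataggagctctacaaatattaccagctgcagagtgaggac
H2BC12: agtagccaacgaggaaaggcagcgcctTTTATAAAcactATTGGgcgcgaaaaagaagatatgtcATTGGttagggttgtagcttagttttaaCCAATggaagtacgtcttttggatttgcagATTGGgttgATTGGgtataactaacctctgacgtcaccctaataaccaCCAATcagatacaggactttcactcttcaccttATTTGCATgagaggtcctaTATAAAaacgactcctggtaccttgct
H3C15: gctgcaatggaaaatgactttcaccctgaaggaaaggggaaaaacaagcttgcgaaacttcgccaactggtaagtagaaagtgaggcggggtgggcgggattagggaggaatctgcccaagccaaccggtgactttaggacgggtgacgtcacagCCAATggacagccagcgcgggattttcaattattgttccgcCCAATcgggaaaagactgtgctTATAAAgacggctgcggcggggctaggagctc
H4C15: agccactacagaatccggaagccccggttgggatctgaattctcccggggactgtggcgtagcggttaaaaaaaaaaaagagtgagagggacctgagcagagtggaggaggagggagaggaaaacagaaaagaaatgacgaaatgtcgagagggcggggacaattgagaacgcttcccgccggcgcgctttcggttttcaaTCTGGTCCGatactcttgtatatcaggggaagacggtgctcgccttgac

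H2BC7 and H2BC12, with log2 differences of 1.22 and 0.19, both hold the octamer. It begins 111 bases before the start in H2BC7 and 46 bases before it in H2BC12, which also has a TATA box 27 bases before the start, while TATAAA was not found in the H2BC7 window. H1-4 has its H1 box 117 bases, a CCAAT box 54 bases and a TATA box 29 bases before the start. H4C15 holds the H4 element 49 bases before the start and none of the other motifs. A match is a description of letters and does not show that a factor binds.

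Promoter windows were found for 61 of the 66 member genes. The octamer was present in 14 of 18 H2B windows, 11 of 15 H2A windows, 1 of 10 H3 windows and in none of the H1 and H4 windows, against 1.66% of all 27305 windows. All 11 H2A and H2B pairs have overlapping windows, so an octamer can be counted for both partners. The H1 box was present in 6 of 6 H1 windows, in none of the other classes and in 4.95% of all windows. The H4 element was present in 4 of 12 H4 windows, in none of the other classes and in 0.656% of all windows. The CCAAT box was present in every H1, H2A, H2B and H3 window and in 3 of 12 H4 windows, against 33.0% of all windows. TATAAA was present in 3 of 6 H1, 11 of 15 H2A, 12 of 18 H2B, 7 of 10 H3 and 6 of 12 H4 windows, against 11.1% of all windows. Of the H2B rows, 9 of 14 with the octamer were called higher with a median difference of 1.13, beside 4 of 5 without it with a median of 1.25.

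By position, histone rows on chromosome 1 were called higher in 10 of 11 cases, against 24.6% of all rows, with a median log2 difference of 1.63. On chromosome 6 the count was 38 of 55, with a median of 0.96. Genes less than 500000 bases from the next member were taken as one run. The 3 runs on chromosome 6 had 22 of 35 rows called higher with a median of 0.87, 3 of 5 with 0.65, and 13 of 15 with 1.25. On chromosome 1 the main run had 8 of 9 with a median of 1.44, and H2AC25 and H2BC26 lay in a run of their own. H4C16 on chromosome 12, alone there, was called higher by 1.05. Classes are unevenly spread over the runs, and the difference between runs was not tested.

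Other genes inside the histone runs were not called higher. They gave 9 rows of 6 genes, with a median log2 difference of -0.14. Limma called 0 of them higher (0 at an unadjusted p under 0.05) and 1 lower, against 24.6% and 24.2% of all rows. So few rows cannot tell a count of 0 from that share, and only 5 of them were above background. HFE, the hemochromatosis gene, had 4 rows with differences from -0.27 to 0.04. TRIM38, a ubiquitin ligase gene, had -0.12. SLC17A2, SLC17A3 and SLC17A4, a group of transporter genes, were below background in both replicates. FCGR1A, an immunoglobulin receptor gene called lower at -0.40 (adjusted p = 0.0157), was below background as well.

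Histone variants that are not made only in S phase were compared as the nearest relatives of the clustered genes. Of 17 rows for these variants, 8 were called higher (47.1%) and 1 lower (5.88%), against 24.6% and 24.2% of all rows. Their median log2 difference was 0.43. The largest called differences were in 2 of the 5 rows of H2AZ2, a variant of H2A, at 1.11 and 0.78. Another H2AZ2 row was called higher at 0.70. The brightest H2AZ2 row had -0.01 (adjusted p = 0.97) and the remaining one 0.67 (adjusted p = 0.38), so the rows of this gene disagreed. H2AZ1, a close relative of H2AZ2, had 13.36, 13.01 and 13.19 against 13.77, 13.48, 13.49 and 13.66, a difference of 0.41 ± 0.12 (adjusted p = 0.0169). H2AX, the variant phosphorylated at DNA breaks, had 0.43 ± 0.11 (adjusted p = 0.0118). Both lost their calls with arrays centred on DNA replication genes (0.19 and 0.20, adjusted p = 0.296 and 0.328), and H2AZ1 also without array 2 of replicate 1 (0.33, adjusted p = 0.0562). Of 2 rows for MACROH2A1, a variant with an added macro domain, 1 was called lower at -0.38 ± 0.10 (adjusted p = 0.00928) and the other, at -0.48, did not pass. H3-3A and H3-3B, which both code for the replacement histone H3.3, did not pass, with -0.14 ± 0.12 and 0.01 ± 0.19, nor did H1-10 with 0.19 ± 0.12. Centred on DNA replication genes, 5 of these rows were called higher and 2 lower, and without array 2 of replicate 1 the count called lower was 2. Of 6 rows for germline histones with other symbols, 3 were called higher and 0 lower by limma (0 lower at an unadjusted p under 0.05), among them H3-4 at 1.25 ± 0.31 and H2BW1, below background, at 0.73 ± 0.15.

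Genes that process histone mRNA had shares of calls near those over all rows. Of 18 rows for mRNA processing, 6 were called higher (33.3%) and 3 lower (16.7%), against 24.6% and 24.2%, with a median of 0.02 (4 and 5 with arrays centred on DNA replication genes). SLBP, which binds the stem-loop, had 9.20, 8.68 and 9.23 in replicate 1 and 8.92, 8.59, 9.12 and 9.31 in replicate 2, overlapping values with a difference of -0.05 ± 0.19 (adjusted p = 0.863). LSM10, a part of the U7 particle that guides the cut at the 3′ end, was called higher at 1.20 ± 0.10, and SNRPD3, which is in the same particle, at 0.80 ± 0.10. ERI1, an exonuclease that trims histone mRNA, was called lower at -0.45 ± 0.11.

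Of 13 rows for histone gene transcription, 1 was called higher (7.69%) and 6 lower (46.2%), against 24.6% and 24.2% of all rows. Their median was -0.23. NPAT was below background in both replicates, with 6.91, 6.83 and 6.96 against 6.57, 6.73, 6.95 and 7.35. CASP8AP2, which works with NPAT at histone genes, was called lower, from 10.83, 11.05 and 10.96 to 10.28, 10.31, 10.21 and 10.17 (-0.70 ± 0.09, adjusted p = 0.000277). One CDK2 row was called lower at -1.86 ± 0.16 while the other CDK2 row had 0.02. NFYA, a subunit of the factor that binds CCAAT boxes, was called lower at -1.11 ± 0.09, and YY1 was called higher at 0.61 ± 0.09, though not with arrays centred on DNA replication genes (0.38, adjusted p = 0.0597). CASP8AP2 is also among the mRNA processing rows called lower. The counts of this short list were not tested against the shares over all rows.

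The chaperones that carry new histones had 2 of 20 rows called higher (10.0%) and 6 lower (30.0%), with a median of -0.01. The shares over all rows were 24.6% and 24.2%. NASP, which binds H1 and H3 with H4, had the largest difference of all rows on these lists, from 10.00, 10.40 and 10.38 to 7.64, 7.35, 7.67 and 7.84 (-2.64 ± 0.14, adjusted p = 4.26e-06). IPO4, an importin that takes H3 and H4 into the nucleus, was called lower at -1.83 ± 0.12. ATRX, a remodeller that deposits H3.3, and NAP1L1, a chaperone of H2A and H2B, were called higher at 1.01 ± 0.14 and 0.56 ± 0.10.

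Genes of the S phase itself had a median difference near 0. Of 44 rows for DNA replication, 11 were called higher (25%) and 6 lower (13.6%), against 24.6% and 24.2% of all rows. The median was -0.0022, and the counts were 2 and 14 with arrays centred on these genes. The count called higher was 7 without array 1 and 6 without array 2 of replicate 1, and 6 without array 1 and 7 without array 3 of replicate 2. GINS1 and RFC2, parts of the helicase and of the clamp loader, were called higher at 0.90 ± 0.09 and 0.76 ± 0.10. CDC6 and MCM3, which license origins, were called lower at -0.85 ± 0.09 and -0.74 ± 0.09. PCNA, the sliding clamp, had 2 rows that did not pass, at -0.31 (adjusted p = 0.0751) and -0.29 (adjusted p = 0.235). With the block, the first PCNA row was called lower (-0.32, adjusted p = 0.0268), and without array 2 of replicate 1 the second was (-0.53, adjusted p = 0.0157). RRM2, which makes deoxynucleotides in S phase, had 9.86, 10.13 and 10.40 against 10.01, 10.18, 10.53 and 10.50, a difference of 0.17 ± 0.17 (adjusted p = 0.418).

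For G2 and mitosis, 11 of 32 rows were called higher (34.4%) and 5 lower (15.6%), against 24.6% and 24.2% of all rows. The median was 0.11, and the counts were 4 and 9 with arrays centred on DNA replication genes. CENPE and CDK1, a kinetochore motor and the mitotic kinase, were called higher at 1.63 ± 0.11 and 1.20 ± 0.18. CCNB2 and KIF23, a mitotic cyclin and a motor of cell division, were called lower at -1.25 ± 0.20 and -0.61 ± 0.16, the latter in 1 of its 2 rows. MKI67, the proliferation marker, had -0.02 ± 0.10. The part of cell cycle phase in the histone difference was not tested.

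**Figure D5:**
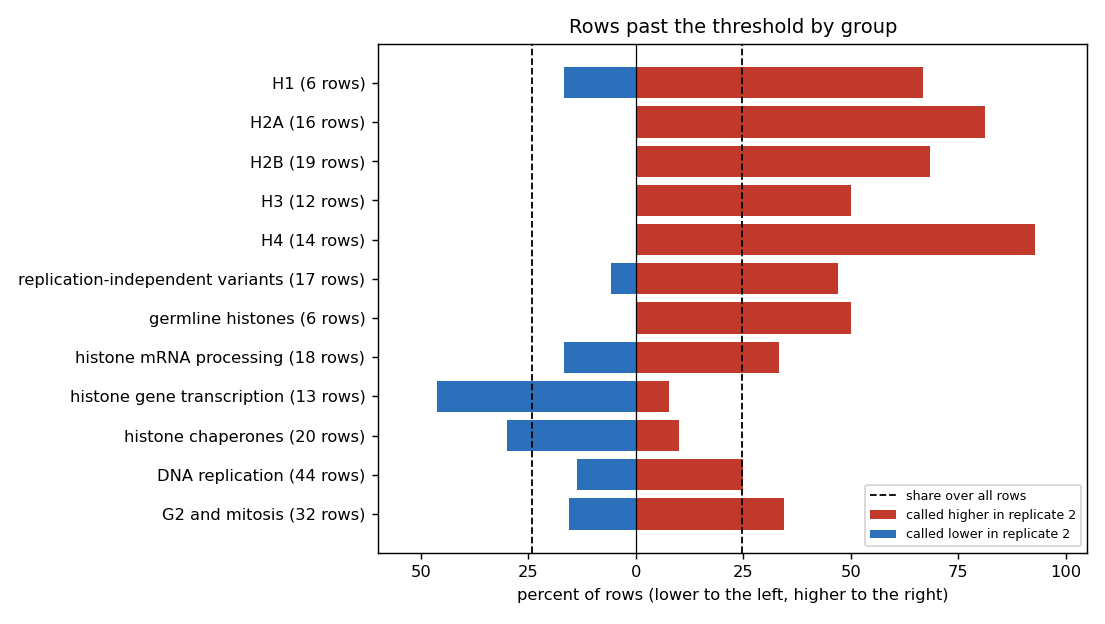
Percent of rows called higher (red, to the right) and lower (blue, to the left) in replicate 2 for the 5 histone classes and the related gene lists, with dashed lines at the shares over all rows, 24.6% and 24.2%. H4 reaches 92.9% higher, and histone gene transcription is the list with 1 of 13 rows higher and 6 lower.

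Within replicate 2, the arrays did not read all classes alike, a pattern noticed after the values were seen. Arrays 3 and 4 were both above arrays 1 and 2 in 11 of 19 H2B rows, against 19.8% of all rows. The counts were 1 of 6 for H1, 4 of 16 for H2A, 4 of 12 for H3 and 5 of 14 for H4. The median gap between these pairs of arrays was 0.22 for H2B and between -0.07 and 0.12 for the other classes. H2BC6, for example, read 12.71, 12.81, 13.38 and 13.48 on arrays 1 to 4, and H2BC14 read 6.84, 7.47, 8.43 and 8.83. H2BC14, called higher over all arrays, lost its call in limma with an intensity trend and a robust prior (1.36, adjusted p = 0.054). It also lost its call without array 3 of replicate 2 (1.18, adjusted p = 0.0509) and without array 1 or array 2 of replicate 1 (1.40 and 1.25, adjusted p = 0.0582 and 0.0702). These arrays share 1 RNA sample, so the gap is one between arrays, and what it goes with was not tested.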

How the data were processed

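RNA of Daoy cells was labelled, per the labels' protocols, with Klenow enzyme and 9mer primers that carried Cy3. How first-strand cDNA was primed is not given in the sources used here. How well mRNAs without a poly(A) tail were copied is therefore not known. Values as deposited are log2 intensities, 1 per row and array. RMA and limma were used by the authors, per the submitters' processing notes, without versions. The base of the logarithm is not stated and was taken as 2 from the range of 5.25 to 15.46. Sorted array columns differed by at most 0.002, so the values had been brought to one distribution before deposit, and a shift of all transcripts together cannot be seen. No background correction or normalization was added. Rows were named by accession through the RefSeq gene table of GRCh38.p14 (19125 rows matched 1 symbol, 4875 none), which served for names and neighbours only.

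The replicates were compared with limma 3.58.1 in R 4.3.3 (lmFit and eBayes, replicate 2 minus replicate 1, 3 against 4 arrays, no covariate), with Benjamini-Hochberg adjustment over all 24000 rows at 0.05. The fit was tested on simulated data. No minimum level was set. Where 1 replicate was below its background, a fold difference was given as a bound against that background. The number of arrays limits the precision.

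Members and lists were chosen with earlier results of these data known, and the lists are no independent evidence. Named were, per class, the 2 brightest rows and the dimmest, the 2 largest differences and the smallest, and every row without a call. From each list the rule took the 2 largest called differences each way, and with them 12 fixed genes, of which 1 is not reported here. Arrays with the same number deviated together from their replicate means (correlation of deviations over all rows 0.21, 0.35 and 0.40 for arrays 1, 2 and 4). Array 4 of replicate 1 with array 3 of replicate 2, of unlike number, gave 0.20. Over the histone rows the values for arrays of the same number were 0.04, -0.24 and -0.02, and this unlike pair gave 0.45. The labels do not say what the number marks, so it entered as a block in an alternative fit only, and the main fit does not pair arrays. Alternatives were array number as a block, an intensity trend with a robust prior, removal of dim rows, averaging of rows of one gene, centring on bright rows or on DNA replication genes, a 99th percentile background, and each array left out in turn.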

Additional observations from a re-analysis of the deposited data

Results flagged for a closer look

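Among the 4 arrays of replicate 2, 1 array stood apart from the other 3 in 4 of the 67 histone rows by Dixon's criterion. Chance meets it in about 1 of 20 groups, so this count is near what chance gives. H3C11, an H3 gene, read 10.347 on array 2 and between 10.011 and 10.056 on the others. H4C12, an H4 gene, read 11.173 on array 3 and between 11.060 and 11.074 on the others. H2AC14, an H2A gene, read 9.672 on array 1 and between 10.187 and 10.265 on the others. H2BC1, the testis-specific H2B gene, read 5.431 on array 4 and between 5.676 and 5.710 on the others, all below background. Each of the 4 arrays was the odd one once. In H3C11, H4C12 and H2AC14 every array of replicate 2, the odd one included, was above every array of replicate 1.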

How the results depend on the processing

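Of the 50 histone rows called, 41 were called under every alternative in which they were fitted. The count called higher was 42 to 52, lowest with arrays centred on DNA replication genes and 44 to 52 with single arrays left out. The count called lower was 0 with dim rows removed, 2 with arrays centred on DNA replication genes and 0 to 1 with single arrays left out. That centring moved the median of all rows by -0.24 and left 2964 rows called higher and 8480 called lower. With it the median log2 difference was 0.82 over the histone rows, 0.95 for H1, 0.75 for H2A, 0.99 for H2B, 0.22 for H3 and 1.29 for H4. It gave 5 mRNA processing rows lower, 0 transcription rows higher, 5 variant rows higher and 2 lower, 2 DNA replication rows higher and 14 lower, and 4 G2 and mitosis rows higher and 9 lower. H1-1 was called lower there (-0.46, adjusted p = 0.0406). With dim rows removed the medians were 1.28 over all histone rows, 1.49 for H1, 1.20 for H2A, 1.03 for H3 and 1.64 for H4, over fewer rows by construction. That filter kept 14 histone rows through replicate 2 alone and 0 through replicate 1 alone, which favours larger medians. With single arrays left out, the median ran from 1.09 to 1.29 for H1 and from 1.05 to 1.26 for H2B. The variant rows called lower ran from 1 to 2 and the DNA replication rows called higher from 6 to 9. With the replicate block on array number, 52 histone rows were called higher, variant rows called lower numbered 2 and germline rows called higher 5. Rows with another call under the block are given with their values above. At the 99th percentile background, 3 H1 rows were above it. The cause of these moves was not tested except where named. Rows near or below background have differences that signal strength limits.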
